A study of Mus musculus with 6 samples.

Results

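Genes of the motile cilium and its axoneme were examined in nucleus accumbens, a ventral striatal region, after delivery of the long noncoding RNA Gas5. The genes were taken by symbol alone: the dynein heavy chain (Dnah), cilia and flagella associated protein (Cfap) and radial spoke (Rsph) genes, Dnai1 and Dnai2, Spag6, Spag16 and Spag17, and Foxj1, Ccdc153, Tmem212, Dynlrb2, Ak7, Rarres2 and Pifo. This took 62 of the 54658 genes in the count tables. Statistics were limited to genes with 10 or more counts in 3 or more libraries, which 55 of the 62 members and 17693 of all genes reached.

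All animals were male C57BL6 mice aged 8 weeks. In the Gas5 group the herpes simplex virus vector p1005+ carried Gas5-EGFP, and in the GFP group it carried EGFP alone. Each group has 3 libraries, named here by the letters A to C. Neither the infected cell types nor the number of mice in a library is given in the sources used here, so p-values measure the spread between libraries, which may be technical. Values are CPM, read counts scaled to library size with TMM factors, and reads over introns were counted along with reads over exons.

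Motile cilia beat by sliding the outer microtubule doublets of the axoneme past each other. Dynein arms on the doublets supply the force, radial spokes and the central apparatus regulate it, and the transcription factor Foxj1 together with RFX factors switches on the genes for these structures. In the brain the ependymal cells that line the ventricles carry tufts of motile cilia, whereas neurons and astrocytes carry a solitary primary cilium that lacks the arms, spokes and central apparatus.

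Total counts lay between 38605056 and 42524874 per Gas5 library and between 32359052 and 56081575 per GFP library. Gas5 itself had 22.6, 23.3 and 23.6 CPM in the Gas5 libraries, against 18.6, 16.5 and 18.3 CPM in the GFP libraries (log2 fold change 0.38, standard error 0.0634, adjusted p = 0.0164), with no overlap, and this call was lost without GFP B (adjusted p = 0.0733) and without GFP C (adjusted p = 0.0689). The 10 markers of medium spiny neurons, the principal neurons of the accumbens, were all tested and edgeR called none (1 had an unadjusted p under 0.05), with a summed level of 3763 to 4987 CPM in the Gas5 libraries and 4559 to 5197 CPM in the GFP libraries. The libraries stood apart in cortical excitatory neuron markers, of which 7 of 10 fell, among them Tbr1, Neurod2 and Neurod6. The mean log2 CPM of these 10 genes, called the cortical marker score here, was 2.19, 2.86 and 3.04 in the Gas5 libraries A to C, against 3.97, 4.47 and 4.49 in the GFP libraries A to C.

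RFX factors bind the X-box of ciliary promoters, so promoter windows of the members were read from RefSeq (GRCm38.p6, 250 bases before to 50 after a start). The table held 54 windows for 49 of the 62 members. The X-box was searched on both strands as 14 letters, GTNNCC followed by NNN and GNNAC, where N is any base. It lay in 13 of the 54 member windows (24.1%), beside 1518 of all 32851 windows (4.62%). The shorter core GTTGCC, which can lie within an X-box, was in 20 member windows (37.0%), beside 12.5% of all windows. The forkhead core TGTTTAC was in 4 member windows (7.41%), beside 3.65% of all windows. A match describes letters in a window and not a bound site. The 14 X-box matches are shown because they are a sequence feature of some members that the choice by symbol did not use. The match is in capitals with 5 flanking bases on each side in lower case, read 5′ to 3′ on the strand in brackets.
Cfap126, chr1:171122963-171122976 (+): tcaagGTATCCATGGCTACttctc
Cfap206, chr4:34730216-34730229 (-): gttccGTTTCCACGGTTACgcgac
Cfap298, chr16:90935024-90935037 (-): ttttgGTTGCCCGGGCAACagcta
Cfap44, chr16:44394772-44394785 (-): ctgcgGTTGCCATAGCAACgtccc
Cfap45, chr1:172521111-172521124 (-): gacgcGTTACCATAGCAACccaag
Cfap61, chr2:145934776-145934789 (+): gcgtcGTTTCCTTAGCAACtgtgt
Cfap77, chr2:29055289-29055302 (-): gtcttGTCACCAAGGAGACgggac
Dnah10, chr5:124725089-124725102 (+): ctaggGTCGCCGTTGCCACggacg
Dnah17, chr11:118129365-118129378 (-): cccttGTCACCAGCGCAACcacag
Dnah2, chr11:69549181-69549194 (-): gggggGTGGCCTCAGCTACaaatc
Pifo, chr3:106001504-106001517 (-): gttccGTTCCCTTGGCAACgtagt
Pifo, chr3:106001555-106001568 (-): gacctGTGTCCTGAGCAACctgct
Rsph9, chr17:46144193-46144206 (-): tcaggGTCTCCATGGAGACagctt
Spag16, chr1:69826867-69826880 (+): aacgcGTTGCCGTAGTAACtgcgg
Some of these matches, as at Cfap298, read as an X-box on both strands and are shown on 1 strand. The 12 tested members with a match had a median log2 fold change of 0.36, and the 30 tested members with a window but no match had a median of 0.10. Those with a match ran between -0.37 (Spag16) and 1.32 (Cfap77). Most of them are Cfap genes, and the 27 tested Cfap genes had a median of 0.26. A link between a match and the fold change was not tested.

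Whole windows follow for the 3 members that passed the test between the groups and have a window, with every motif match in capitals.
Cfap44, chr16:44394549-44394848 (+): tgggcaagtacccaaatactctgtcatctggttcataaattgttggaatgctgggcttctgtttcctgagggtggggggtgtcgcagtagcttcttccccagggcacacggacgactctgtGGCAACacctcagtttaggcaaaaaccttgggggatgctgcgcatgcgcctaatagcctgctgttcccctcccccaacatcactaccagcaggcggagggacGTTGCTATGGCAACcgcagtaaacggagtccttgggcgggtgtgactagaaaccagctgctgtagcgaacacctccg
Cfap61, chr2:145934534-145934833 (+): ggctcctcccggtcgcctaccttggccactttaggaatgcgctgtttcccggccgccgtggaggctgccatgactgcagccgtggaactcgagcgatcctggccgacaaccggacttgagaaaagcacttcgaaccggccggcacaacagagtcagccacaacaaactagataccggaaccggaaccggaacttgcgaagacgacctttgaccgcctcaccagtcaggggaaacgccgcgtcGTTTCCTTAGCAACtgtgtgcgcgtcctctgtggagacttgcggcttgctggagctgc
Dnah14, chr1:181576343-181576642 (+): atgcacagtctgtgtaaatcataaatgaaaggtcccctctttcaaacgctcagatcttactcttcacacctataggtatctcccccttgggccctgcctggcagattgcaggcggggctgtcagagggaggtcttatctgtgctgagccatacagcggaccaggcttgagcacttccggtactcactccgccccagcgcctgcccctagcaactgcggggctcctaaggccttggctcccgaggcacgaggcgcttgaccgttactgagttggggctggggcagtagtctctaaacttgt
The Cfap44 window holds an X-box that starts 27 bases before the start and includes the core GTTGCC, and another core lies 129 bases before the start. The X-box of Cfap61 starts 8 bases before the start and continues past it. The Dnah14 window holds none of the 3 motifs, which says only that these letters are not in it.

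Among the 55 tested members, 4 rose and 1 fell in the Gas5 libraries. Cfap44, Rsph1, Cfap54 and Cfap61 rose, and Dnah14 fell. The 5 calls are 9.09% of the tested members, beside 5.4% of all tested genes. The 4 higher members are 7.27%, beside 1.46% of all tested genes called higher, and 1 lower member stands beside 3.94% called lower. The counts moved with single libraries. Without GFP B edgeR called 0 members and without GFP C 0, where 16 and 15 members had an unadjusted p under 0.05. Calls fell over all tested genes too, to 3 higher and 105 lower without GFP B and 4 higher and 88 lower without GFP C. With all libraries they numbered 259 higher and 697 lower. Unadjusted, 2642 of 17536 genes without GFP B and 2721 of 17597 without GFP C had a p under 0.05. Among the members edgeR called 1 higher and 0 lower without Gas5 A, and 3 higher and 0 lower without Gas5 B. Without GFP A it called 2 members higher and 2 lower.

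Most members lay on the higher side without passing the test. The log2 fold change was positive in 44 of 55 members (80.0%), beside 54.2% of all tested genes, and the median was 0.16, beside 0.02 over all tested genes. Every Gas5 library lay above every GFP library for 16 members (29.1%), beside 13.7% of all tested genes. The reverse held for 2 members, Dnah14 and Dnah9, beside 13.9%. An unadjusted p under 0.05 was reached by 18 members (32.7%), beside 21.4% of all tested genes. The summed level of the tested members was 438, 424 and 389 CPM in the Gas5 libraries, against 369, 375 and 349 CPM in the GFP libraries, without overlap. Most of that sum was Cfap genes, with a mean of 293 of 417 CPM in the Gas5 group and 250 of 364 CPM in the GFP group. Of these, the called Cfap44 and Cfap54 had means of 18.2 and 42.0 CPM in the Gas5 group, against 7.66 and 32.6 CPM in the GFP group. Gas5 A was the highest library for 25 members (45.5%), beside 24.8% of all tested genes. In whole tissue, more or fewer cells of a type and more or less RNA per cell cannot be told apart.

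**Figure D1:**
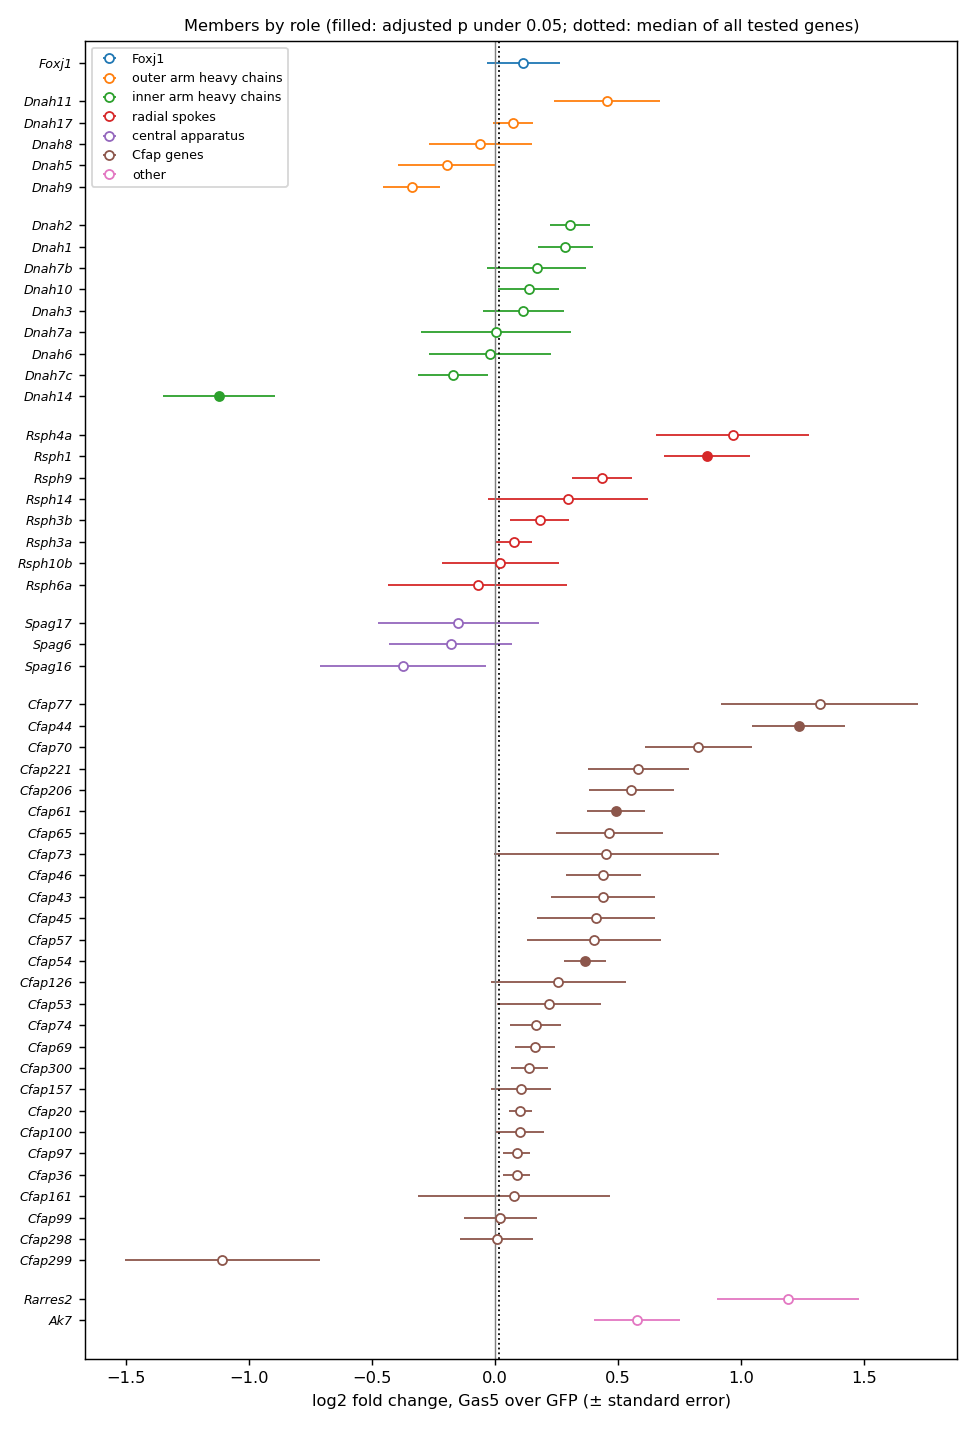
Log2 fold change (x axis, Gas5 over GFP) of the 55 tested members with its standard error, by role. Filled circles have an adjusted p under 0.05 and the dotted line is the median of all tested genes at 0.02; 26 of 27 Cfap genes lie right of 0 and Spag6, Spag16 and Spag17 left of it.

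Foxj1, the switch for the motile cilium programme, showed no call. It had 2.55, 2.57 and 3.05 CPM in the Gas5 libraries, against 2.81, 2.49 and 2.17 CPM in the GFP libraries, and the groups overlapped (log2 fold change 0.12, standard error 0.150, adjusted p = 0.705).

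Radial spokes reach from the doublets towards the central apparatus. Of 8 tested radial spoke genes 1 rose and 0 fell, 7 had a positive log2 fold change, and the median was 0.24. Rsph1, a spoke head protein, had 3.85, 3.16 and 2.66 CPM in the Gas5 libraries, against 1.60, 1.87 and 1.89 CPM in the GFP libraries. The groups did not overlap, and Rsph1 was 1.82-fold higher (log2 fold change 0.86, standard error 0.173, adjusted p = 0.0291). It lies at chr17:31255019-31277356 on the minus strand (GRCm38) and overlaps no other listed gene.

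Rsph9 and Rsph4a, also spoke head proteins, separated the groups without passing the test. Rsph9 had 9.67, 8.32 and 7.30 CPM in the Gas5 libraries, against 5.65, 6.38 and 6.77 CPM in the GFP libraries (log2 fold change 0.44, adjusted p = 0.0804), and 31.0% of its span overlaps other genes and was not counted. Rsph4a had 2.94, 1.68 and 1.68 CPM in the Gas5 libraries, against 1.46, 0.778 and 0.913 CPM in the GFP libraries (log2 fold change 0.97, adjusted p = 0.116). The remaining 5 had log2 fold changes between -0.07 and 0.30. Rsph3a and Rsph3b are near copies, named for that reason: 54.4% of the 50-base words in Rsph3a transcripts also occur in Rsph3b, so their values are uncertain.

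Cfap genes serve many parts of the axoneme. Of 29 listed 27 were tested, 3 rose and 0 fell, 26 had a positive log2 fold change, and the median was 0.26. Cfap44, part of the tether that anchors an inner dynein arm, had 22.7, 18.3 and 13.6 CPM in the Gas5 libraries, against 8.64, 8.12 and 6.23 CPM in the GFP libraries. The lowest Gas5 library was above the highest GFP library, and Cfap44 was 2.35-fold higher (log2 fold change 1.23, standard error 0.188, adjusted p = 0.0122). Its call was lost without GFP B (adjusted p = 0.0628) and without GFP C (adjusted p = 0.0646), while its log2 fold change stayed between 1.04 and 1.39 over the 6 libraries left out in turn. It lies at chr16:44394796-44482428 on the plus strand and overlaps no listed gene. Of its tested neighbours, Boc, 2.62 kb beyond it on the opposite strand, fell (log2 fold change -0.68, adjusted p = 0.0291), and Spice1, 6.30 kb before it, had 0.17 (adjusted p = 0.296).

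Cfap54, a central apparatus protein, had 42.6, 46.8 and 36.6 CPM in the Gas5 libraries, against 33.7, 33.3 and 30.8 CPM in the GFP libraries. All Gas5 values were above the GFP values, and Cfap54 was 1.29-fold higher (log2 fold change 0.36, standard error 0.0860, adjusted p = 0.0477). Cfap61, a protein of the radial spoke base, had 6.59, 6.29 and 5.24 CPM in the Gas5 libraries, against 4.48, 3.99 and 4.41 CPM in the GFP libraries. It too showed no overlap and was 1.41-fold higher (log2 fold change 0.49, standard error 0.117, adjusted p = 0.0489). These calls were near the threshold: leaving out 1 library ended those of Cfap54, Cfap61 and Rsph1 in every case except that of Gas5 C, and limma-voom gave adjusted p = 0.0566 for Cfap54 and 0.0551 for Cfap61.

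The 24 Cfap genes not called had log2 fold changes between -1.11 (Cfap299) and 1.32 (Cfap77), both named after their values were seen. Cfap77 had 1.79, 0.654 and 0.929 CPM in the Gas5 libraries, against 0.414, 0.389 and 0.567 CPM in the GFP libraries, so even its higher level was low (adjusted p = 0.100). Cfap genes above 10 CPM in the GFP group numbered 7, with a median log2 fold change of 0.14, and the other 20 had a median of 0.42. The GFP level also enters the fold change, so this split cannot show whether level and change go together.

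**Figure D2:**
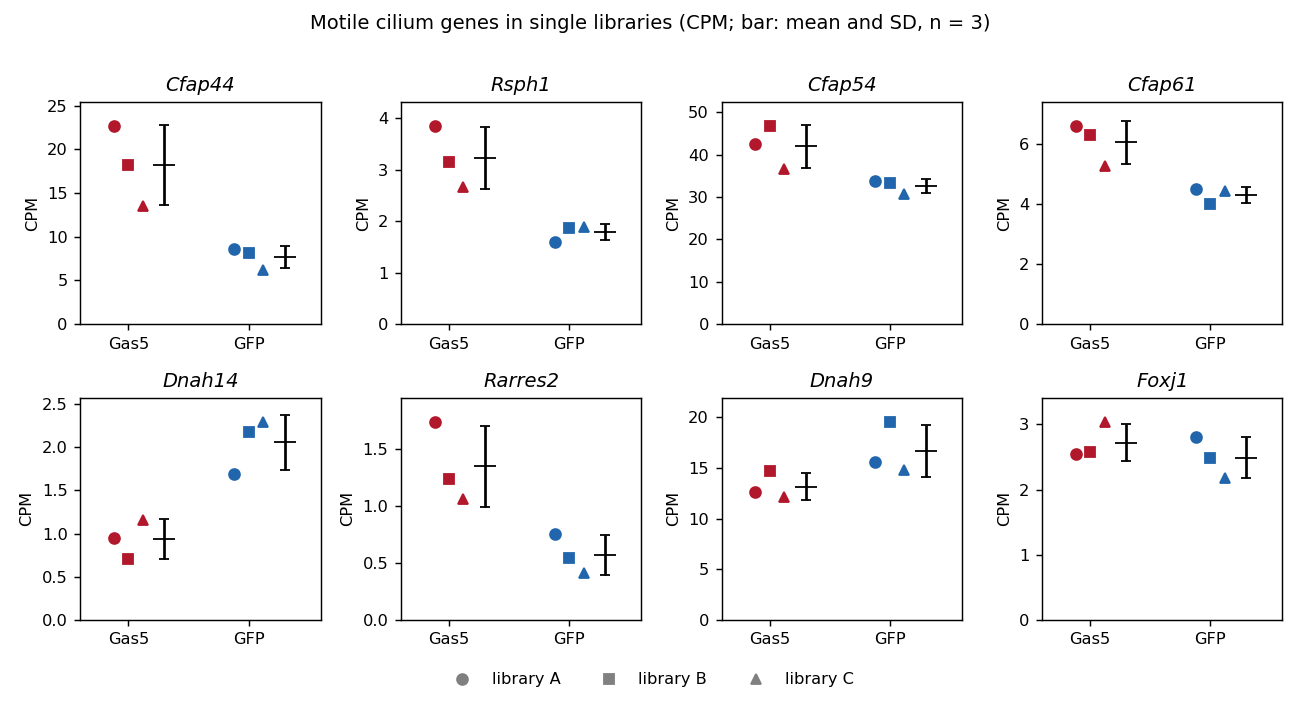
CPM (y axis, from 0) of 8 members in each library, Gas5 left in red and GFP right in blue, with mean and SD of 3 libraries. For Cfap44, Rsph1, Cfap54, Cfap61 and Rarres2 all Gas5 libraries lie above all GFP libraries, for Dnah14 and Dnah9 all lie below, and for Foxj1 the groups overlap.

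Dynein heavy chains are the motors of the arms. Of the 5 outer arm genes 0 were called by edgeR (1 had an unadjusted p under 0.05) and 0 by DESeq2, and their median log2 fold change was -0.06. Dnah9, an outer arm motor of ciliated epithelia, had 12.6, 14.7 and 12.1 CPM in the Gas5 libraries, against 15.6, 19.6 and 14.8 CPM in the GFP libraries. Its Gas5 libraries were below its GFP libraries, though the difference missed the threshold (log2 fold change -0.34, standard error 0.118, adjusted p = 0.139). The outer arm motors Dnah11 and Dnah5 had log2 fold changes of 0.45 (adjusted p = 0.271) and -0.20 (adjusted p = 0.621).

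Of 10 inner arm heavy chain genes 9 were tested, 0 rose and 1 fell. Dnah14, a heavy chain grouped here with the inner arm, had 41, 30 and 45 counts in the Gas5 libraries, against 94, 84 and 73 counts in the GFP libraries. As levels these were 0.951, 0.701 and 1.16 CPM in the Gas5 libraries, against 1.69, 2.18 and 2.30 CPM in the GFP libraries, and the groups did not overlap. Dnah14 was 2.18-fold lower (log2 fold change -1.12, standard error 0.228, adjusted p = 0.0300), and its call held when Gas5 C or GFP A was left out and was lost without any of the other 4 libraries. It lies at chr1:181576559-181815774 on the plus strand, and 1.82% of its span overlaps other listed genes, among them Lbr. Neighbours were taken only among tested genes that do not overlap the member. The nearest such gene at lower coordinates, Cnih3, 116 kb away, also fell (log2 fold change -0.68, adjusted p = 0.0317). On the other side Enah, 80.6 kb away, was not called (log2 fold change 0.09, adjusted p = 0.277). The nearest tested neighbours of Rsph1, Cfap54 and Cfap61, taken in the same way, were not called on either side (adjusted p between 0.0692 and 0.997).

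Dnah2, an inner arm motor, had 17.1, 15.4 and 14.5 CPM in the Gas5 libraries, against 13.5, 12.5 and 12.0 CPM in the GFP libraries, with no overlap (log2 fold change 0.30, adjusted p = 0.0707). Dnah1, another inner arm motor, had a log2 fold change of 0.28 (adjusted p = 0.186), and 82.2% of its span is shared and was not counted. The Dnah7 genes are near copies with uncertain values, since 46.8% of the 50-base words in Dnah7c transcripts occur in other genes. RefSeq gives Dnai1 and Dnai2, the outer arm intermediate chains, as synonyms of Dnaic1 and Dnaic2, which the choice by symbol does not take and whose log2 fold changes were -0.07 (adjusted p = 0.821) and 0.29 (adjusted p = 0.424).

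Spag6, Spag16 and Spag17, the members listed for the central apparatus, had no call by edgeR or DESeq2, and 0 of the 3 had an unadjusted p under 0.05. Their log2 fold changes were -0.18 (adjusted p = 0.724), -0.37 (adjusted p = 0.572) and -0.15 (adjusted p = 0.834). Spag16 had 3.04, 1.50 and 2.56 CPM in the Gas5 libraries, against 2.12, 4.64 and 2.49 CPM in the GFP libraries, with overlap, and the sign of each of the 3 turned when a certain library was left out.

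Rarres2 encodes the secreted chemoattractant chemerin and no part of the axoneme. It had 1.74, 1.24 and 1.06 CPM in the Gas5 libraries, against 0.756, 0.545 and 0.409 CPM in the GFP libraries, without overlap, and just missed the threshold (log2 fold change 1.19, standard error 0.289, adjusted p = 0.0516), with 33.2% of its span shared. Ak7, an adenylate kinase of cilia, had 3.04, 3.69 and 2.58 CPM in the Gas5 libraries, against 2.14, 1.79 and 2.33 CPM in the GFP libraries, also without overlap (log2 fold change 0.58, adjusted p = 0.101).

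The other ciliated cell markers were among the 7 members below the filter. Tmem212 had 3, 5 and 0 counts in the Gas5 libraries, against 4, 0 and 0 counts in the GFP libraries. Ccdc153 had 5, 2 and 5 counts in the Gas5 libraries, against 2, 4 and 1 counts in the GFP libraries. Dynlrb2, a dynein light chain of the roadblock family, had 5, 5 and 2 counts in the Gas5 libraries, against 7, 2 and 0 counts in the GFP libraries. These defining markers were thus at or near 0 in both groups, and a count of 0 allows up to 0.0540 to 0.0945 CPM (3 counts), depending on the library and for counting error only. Pifo, with 74.0% of its span shared, had 17 counts over the Gas5 libraries and 19 over the GFP libraries. Cfap52, Cfap58 and Dnah12 had 4, 8 and 8 counts over the Gas5 libraries and 10, 10 and 6 over the GFP libraries. A difference was not detectable at this depth for these 7 genes.

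Levels of different members were set beside each other per length, and the order depended on the length used. As CPM per kb of counted span, introns included, the Gas5 group ran between 0.00119 and 2.21 with a median of 0.0621, and the GFP group between 0.00265 and 2.06 with a median of 0.0467. On that scale Cfap20 and Cfap36 were highest and Cfap299 was lowest in both groups, but exons make up 30.4% of the span of Cfap20 and 0.306% of that of Cfap299. As CPM per kb of exon, Cfap36 was highest, with 20.2 in the Gas5 group, against 19.0 in the GFP group, followed by Cfap300 with 8.90 in the Gas5 group, against 8.07 in the GFP group. Dnah8, an outer arm motor of sperm, was lowest on the exon scale, with 0.0380 in the Gas5 group, against 0.0394 in the GFP group. The counts do not separate exon from intron reads. Introns fill most of the called genes: exons make up 9.59% of the span of Cfap44, 6.14% of Rsph1, 4.79% of Cfap54, 3.78% of Cfap61 and 6.79% of Dnah14.

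Motile cilium genes outside the choice by symbol had no call. Of 63 genes in 5 lists 47 were tested and edgeR called 0, beside 5.4% of all tested genes. At an unadjusted p under 0.05, 11 were higher and 1 lower. Over all 17693 tested genes 1804 were higher and 1979 lower at that threshold, together 21.4%. The log2 fold change was positive in 42 of the 47 (89.4%), beside 54.2% of all tested genes. The median was 0.15, beside 0.02. All 13 tested arm assembly and docking genes were positive (median 0.15), among them the inner arm chain Wdr78 at 0.16 (adjusted p = 0.107), and the assembly factors Dnaaf5 at 0.15 (adjusted p = 0.222) and Zmynd10 at 0.48 (adjusted p = 0.389), of whose span 79.6% is shared. All 11 tested doublet and tektin genes were positive too (median 0.29), with Mns1 at 0.57 (adjusted p = 0.158) and Meig1 at 0.67 (adjusted p = 0.220).

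Hydin, a giant protein of the central apparatus, had 2.06, 1.29 and 1.11 CPM in the Gas5 libraries, against 0.936, 0.570 and 0.598 CPM in the GFP libraries, with no overlap (log2 fold change 1.05, adjusted p = 0.0916). In its list 5 of 6 genes were positive, with Spef2 at 0.42 (adjusted p = 0.131) and Spag6l, a relative of Spag6, at 0.09 (adjusted p = 0.583). In the list of ruler and nexin-dynein regulatory genes 6 of 9 were positive. There Tcte1 stood at -1.26 (adjusted p = 0.0650), Drc1 at 0.30 (adjusted p = 0.213) and Ccdc39 at 0.15 (adjusted p = 0.232). In the multiciliation programme 7 of 8 were positive, with the X-box factors Rfx3 at 0.14 (adjusted p = 0.172) and Rfx2 at 0.46 (adjusted p = 0.333), and Deup1, which builds deuterosomes, at 0.89 (adjusted p = 0.177).

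Genes that primary cilia also use, those of intraflagellar transport, the BBSome and ciliary signalling, had 1 call up and 1 down among 33, with a median log2 fold change of 0.06. The 2 calls are 6.06% of the list, beside 5.4% of all tested genes. Every Gas5 library lay above every GFP library for 13 of the 33 (39.4%), beside 13.7% of all tested genes and 29.1% of the members, and 12 were higher and 1 lower at an unadjusted p under 0.05. Bbs7, a BBSome subunit, had 26.3, 27.4 and 23.9 CPM in the Gas5 libraries, against 21.5, 20.9 and 21.6 CPM in the GFP libraries and rose (log2 fold change 0.28, adjusted p = 0.0418). Sstr3, a somatostatin receptor of neuronal primary cilia, had 1.30, 1.68 and 2.19 CPM in the Gas5 libraries, against 4.23, 4.98 and 7.12 CPM in the GFP libraries and fell (log2 fold change -1.65, adjusted p = 0.0113). Ift74, a transport subunit, stood at 0.19 (adjusted p = 0.105). Over these and the motile cilium lists together, 80 tested genes, DESeq2 called 2 higher and 2 lower.

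**Figure D3:**
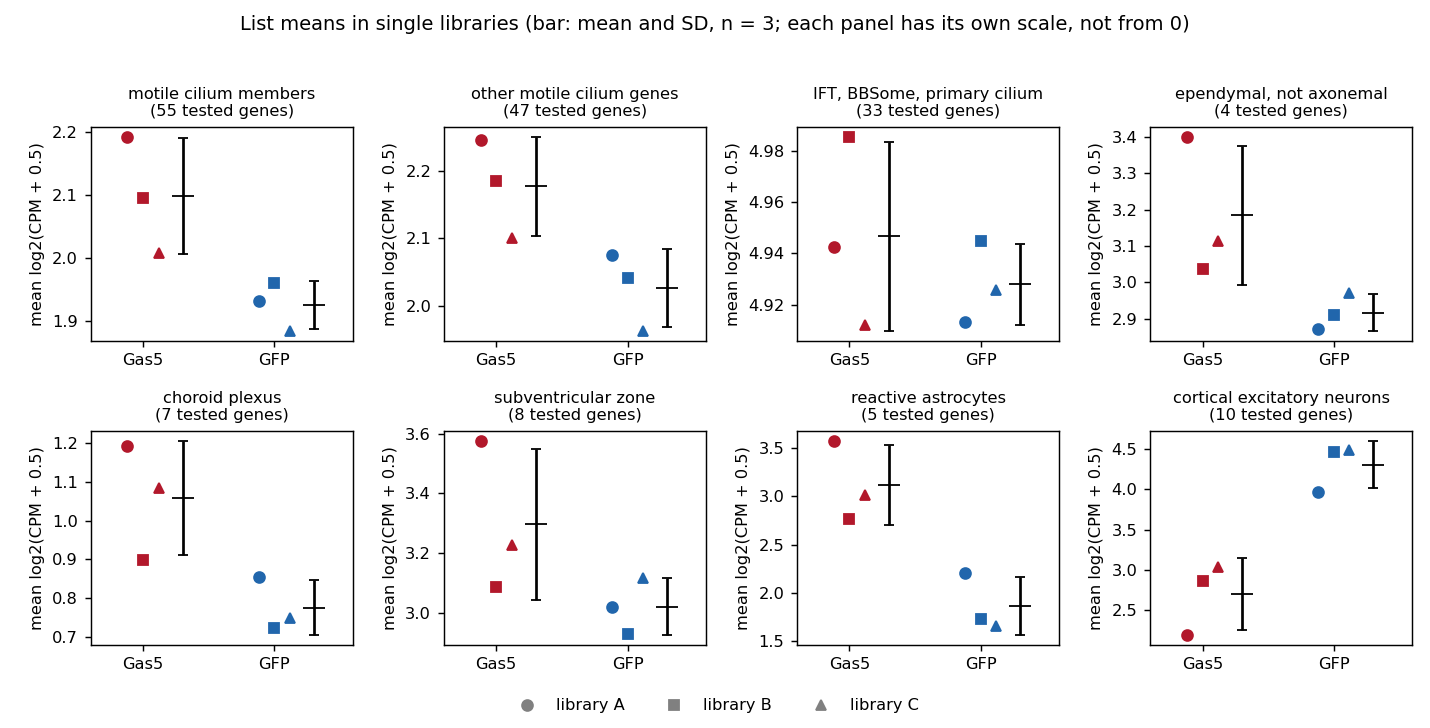
Mean log2(CPM + 0.5) of 8 gene lists in each library (scales differ and do not start at 0), Gas5 left and GFP right, with mean and SD of 3 libraries. The members, other motile cilium genes, ependymal, choroid plexus and reactive astrocyte lists have every Gas5 library above every GFP library, the cortical list has the reverse, the ependymal difference is that of Vim, and the primary cilium and subventricular zone lists overlap.

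Markers of other cells moved in the same libraries. Of 5 ependymal genes outside the axoneme 4 were tested and 1 rose, with a summed level of 46.1 to 76.3 CPM in the Gas5 libraries and 37.0 to 38.4 CPM in the GFP libraries. The gene that rose was Vim, an intermediate filament that reactive astrocytes express too (log2 fold change 1.67, adjusted p = 0.0208), while Prom1 and S100b stood at -0.29 (adjusted p = 0.0831) and -0.20 (adjusted p = 0.513), Tm4sf1 at -0.04 (adjusted p = 0.901), and Mia had 1 count in all. Without Vim, a choice made after its values were seen, the sum of the other 3 tested genes ran the other way, at 22.7, 21.5 and 23.9 CPM in the Gas5 libraries, against 26.3, 24.6 and 29.8 CPM in the GFP libraries. Of 11 choroid plexus markers 7 were tested and 1, Kl, rose, with a summed level of 30.6 to 36.8 CPM in the Gas5 libraries and 24.5 to 27.1 CPM in the GFP libraries. That sum was mostly Clic6, whose groups overlapped (log2 fold change 0.20, adjusted p = 0.401). It had 20.1, 29.4 and 22.5 CPM in the Gas5 libraries, against 21.3, 21.3 and 20.1 CPM in the GFP libraries. Prlr, at 1.83 (adjusted p = 0.132), had 4.80, 0.888 and 1.21 CPM in the Gas5 libraries, against 0.702, 0.622 and 0.598 CPM in the GFP libraries. Ttr was low, with 0.186, 0.234 and 0.568 CPM in the Gas5 libraries, against 0.720, 0.182 and 0.598 CPM in the GFP libraries. Over all libraries Folr1, with 56.8% of its span shared, had 2 counts and Cldn2 had 3.

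Of 9 subventricular zone markers 8 were tested and 1, Mki67, rose, with a summed level of 155 to 212 CPM in the Gas5 libraries and 145 to 159 CPM in the GFP libraries. Of 7 reactive astrocyte markers 5 were tested and 3 rose, Lcn2, Serpina3n and C3, with a summed level of 43.8 to 82.7 CPM in the Gas5 libraries and 19.4 to 27.7 CPM in the GFP libraries. Gfap and Timp1 have 0 counts, and their whole spans are shared with other genes. Of 8 astrocyte markers 1, Aqp4, rose, 6 had a positive log2 fold change and 2 a negative one (median 0.22). The summed astrocyte level was 2644 to 3140 CPM in the Gas5 libraries and 2995 to 3196 CPM in the GFP libraries. Most of that sum was Slc1a2, which was not called (log2 fold change -0.21, adjusted p = 0.258). Of the tested microglia and oligodendrocyte markers, 0 of 6 and 0 of 6 were called by edgeR, with 3 and 4 at an unadjusted p under 0.05. All 6 microglia markers had a positive log2 fold change (median 0.18), and all 6 oligodendrocyte markers a negative one (median -0.27). Gas5 A had the highest reactive astrocyte level and the lowest cortical marker score. With that score in the fit as a covariate, edgeR called 0 genes of any kind (415 had an unadjusted p under 0.05), and the median of the members was 0.00. The part of these other cells in the cilium gene values was not tested.

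**Figure D4:**
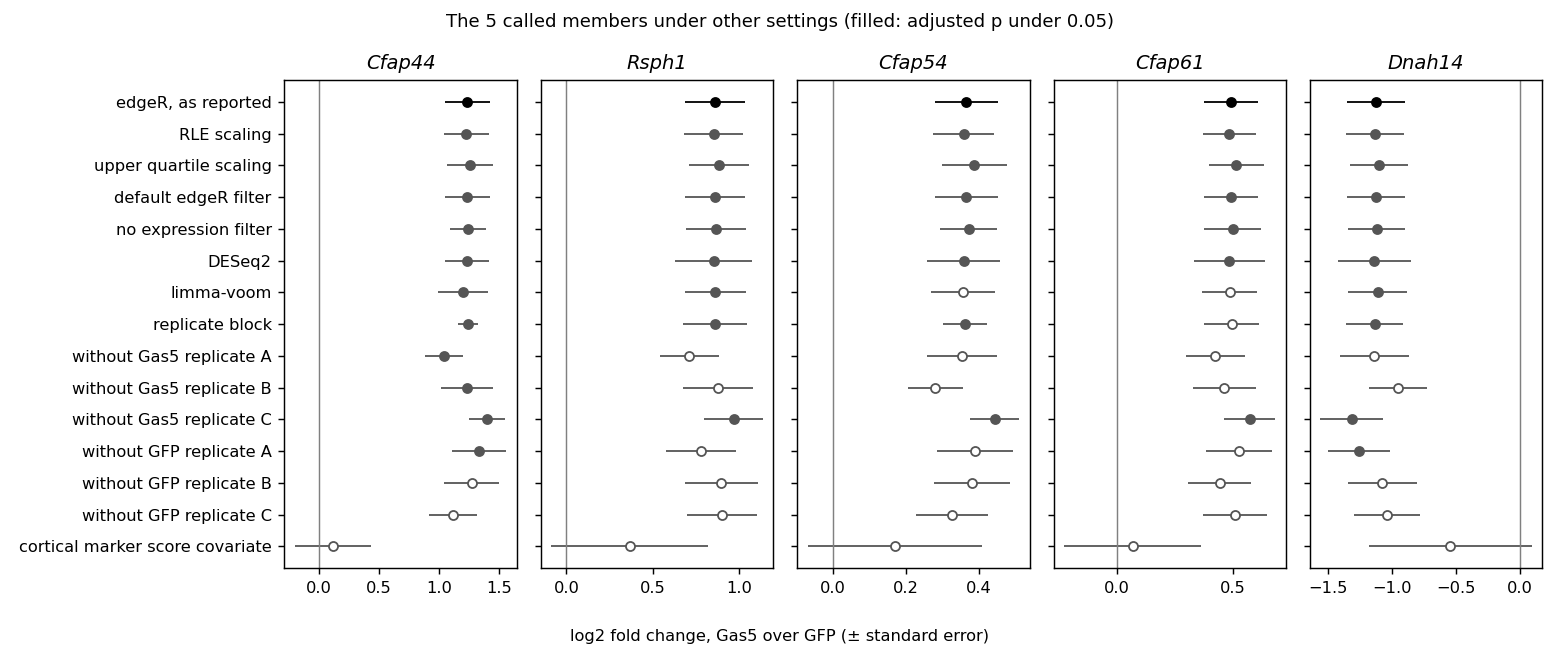
Log2 fold change (x axis, Gas5 over GFP, with standard error) of the 5 called members in the reported fit and under 14 other settings, filled where the adjusted p is under 0.05. Signs hold throughout, and the values adjusted for the cortical marker score are 0.12 for Cfap44, 0.37 for Rsph1, 0.17 for Cfap54, 0.07 for Cfap61 and -0.54 for Dnah14. Each of these adjusted values is smaller in size than its standard error (0.237 to 0.636).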

How the data were processed

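RNA-seq of 6 accumbens libraries was used. Per the file headers, the authors deposited raw counts per gene, not normalized, as whole numbers. Per the submitters' processing notes, the tools were STAR 2.7.0 (genome build GRCm38.p6), Trim Galore 0.4.4, bcl2fastq 1.8.4, edgeR 3.20.9 and featureCounts 1.5.0-p3. Whether counting used strand is not stated in the labels or headers. The listed gene length equals the whole span, so introns were counted. None of the 1261 coding genes over 500 bases whose whole span is shared has a count, so reads in overlaps were left out. Of the members, 16 share more than 10% of the span.

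The counts were tested in edgeR 4.0.16 by its quasi-likelihood F-test (R 4.3.3; TMM scaling; Gas5 over GFP, all 6 libraries, no covariate). Genes needed 10 counts in 3 libraries. P-values were adjusted by Benjamini-Hochberg over 17693 genes, threshold 0.05. Standard errors were derived from the fold change and F. Means of log2 CPM used a pseudocount of 0.5. The procedure was tested on simulated data that gave all genes and libraries the same dispersion. Such data lack the uneven spread of these libraries, so that check could not test calls that hang on single libraries. Libraries of a group differed beyond sampling noise. Exons and shared 50-base words came from GENCODE M21, matched by coordinates for 58 members and by symbol for 4.

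The members and lists were chosen with earlier results of these data known. The genes named are Gas5, Foxj1, the called members, and the 3 of smallest p in each role and list, with exceptions stated; a gene that this takes is not reported here. Alternatives were RLE and upper quartile scaling, the default edgeR filter and none, DESeq2 1.42.0, limma-voom (limma 3.58.1), the library letter as a block, the cortical marker score as a covariate, and each library left out.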

Additional observations from a re-analysis of the deposited data

How the results depend on the processing

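The 5 called members kept their direction in all 14 alternatives. Rsph1, Cfap44 and Dnah14 also kept their calls under every other scaling, filter and tool that kept all libraries and added no covariate. Members called higher numbered 10 without the expression filter, 9 by DESeq2 and 2 by limma-voom. All genes called, 956 as reported, numbered 1658 without the filter and 1489 by DESeq2, and other cilium genes called higher numbered 2 in both. When libraries were left out in turn, members called higher ranged from 0 to 4, members called lower from 0 to 2, other cilium genes called higher from 0 to 1, all genes called from 92 to 835, and the log2 fold change of Gas5 from 0.33 to 0.42. Adjusting for the cortical marker score left 0 genes called, 0 members higher, 0 members lower and 0 other cilium genes higher, a member median of 0.00426, and Gas5 at 0.37 (adjusted p = 0.999). The score separates the groups, so score and group cannot be told apart in this fit.

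Signs turned under that adjustment for Dnah11 (-0.15), Dnah2 (-0.13), Rarres2 (-0.28), Rsph4a (-0.90), Spag17 (1.15), Spag6 (0.88), Ccdc39 (-0.15), Dnaaf5 (-0.13), Hydin (-0.74), Ift74 (-0.0187), Mns1 (-0.0912), Rfx2 (-0.92), Rfx3 (-0.0304), Spag6l (-0.10), Spef2 (-0.0174), Tcte1 (0.0515) and Zmynd10 (-0.62). With libraries left out in turn, the range crossed 0 for Spag17 (-0.46 to 0.0473), Spag16 (-0.61 to 0.0439), Spag6 (-0.37 to 0.0143) and Dnah5 (-0.33 to 0.0523). None of these genes was called as reported, and the cause was not tested.

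The labels do not say whether the letters A to C pair libraries, and they were not taken to: same-letter libraries deviated from their group means with correlations of 0.16, 0.18 and -0.0935, and libraries of different letters with -0.22 to 0.0557. With the letter as a replicate block, all genes called numbered 1434, members called higher 6, members called lower 2 and other cilium genes called higher 2, with Dnah2, Rarres2, Rsph4a and Dnah9 gained (Dnah9 lower, adjusted p = 0.0264) and Cfap61 lost (adjusted p = 0.0506). Keeping only members with at most 10% of the span shared, a choice made after seeing the data, gave 4 higher and 1 lower of 41 tested.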
